A study of Mus musculus with 10 samples.

Results

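The comparison set GSK126-treated MC3T3 cells on day 10, after the inhibitor had been taken away on day 6, against GSK126-treated cells on day 6. MC3T3 is an established mouse calvarial pre-osteoblast line, and the comparison used 2 of the 6 RNA libraries in a series of 10 samples, 1 library a side. All 23358 rows of the deposited count table were taken, and 12221 passed a minimum of 1 CPM (a count scaled to its library's size) in at least 1 of the 6 RNA libraries. The groups used were GSK126 on days 3, 6 and 10 and vehicle on days 3, 6 and 10. All of them grew in osteogenic medium, which held beta glycerol phosphate and ascorbic acid, and all had GSK126 at 5 µM or vehicle at the start, again 3 days later, and neither after day 6. No culture stayed on the compound to day 10, so removal and further culture time cannot be told apart. Vehicle values for days 6 and 10 are given beside the main results for that reason.

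GSK126 blocks EZH2, the enzyme within Polycomb repressive complex 2 (PRC2) that places methyl groups on histone H3 at lysine 27 and so keeps developmental genes silent. In bone-forming cells, maturation and cell division usually run in opposite directions: pre-osteoblasts divide, then leave the cell cycle as they lay down and mineralize matrix. The cell cycle genes themselves are switched in waves, with E2F factors driving DNA replication genes and the MuvB complex, B-MYB and FOXM1 driving mitotic genes. The integrated stress response is a separate programme in which ATF4 raises genes for amino acid supply and redox balance when translation is restrained.

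The deposited counts gave 98285172 counts in the GSK126 library of day 10 and 101690602 in that of day 6, within a range of 97291878 to 111537936 over the 6 RNA libraries. Rn45s, the ribosomal RNA precursor, took 7.47% of the GSK126 counts on day 10 and 5.61% on day 6, with 7.24% and 5.99% for vehicle. The osteoblast label was met by its defining genes, with Col1a1 at 32927 and 36138 CPM and Sp7 at 331 and 241 CPM in GSK126 cells on days 10 and 6. Markers of adipocytes summed to 6.91 to 15.7 CPM over the libraries, those of skeletal muscle to 0.319 to 1.16 CPM, of blood cells to 1.83 to 2.55 CPM and of endothelium to 0.729 to 4.95 CPM. The neuronal list summed to 115 CPM in GSK126 cells on day 10 and 52.0 CPM on day 6, mostly Tubb3, a tubulin gene. The osteoclast list summed to 125 to 418 CPM, mostly Ctsk, while 4 of its 5 genes stayed under 1 CPM throughout. Cartilage genes were not near silent. The 11 that passed the filter summed to 1056 CPM in vehicle cells on day 3 and 2223 CPM in GSK126 cells on day 10, with Col11a1 at 730 and 1968 CPM. Col2a1 had 559 CPM in GSK126 cells and 207 CPM in vehicle cells on day 3.

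Promoters of some genes of the mitosis, DNA replication and stress lists are printed first. They were picked among list members whose promoter holds the motif named below, so they do not stand for their lists. They cover the 200 bases before the annotated start, from RefSeq on GRCm38.p6, 5′ to 3′ along the gene's strand. Capitals mark, on either strand, the cell cycle homology region TTTGAA in the mitotic genes, the E2F-type motif GGCGGGAA in 1 of the 2 annotated promoters of the replication gene Uhrf1, and the ATF4-type motif TTGCATCA in the stress genes.
Cdk1 promoter, chr10:69352913-69353112, minus strand: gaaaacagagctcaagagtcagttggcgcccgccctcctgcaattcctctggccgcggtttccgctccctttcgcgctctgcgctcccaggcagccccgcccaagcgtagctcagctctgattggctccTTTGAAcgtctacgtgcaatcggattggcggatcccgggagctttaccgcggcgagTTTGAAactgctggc
Top2a promoter, chr11:99024190-99024389, minus strand: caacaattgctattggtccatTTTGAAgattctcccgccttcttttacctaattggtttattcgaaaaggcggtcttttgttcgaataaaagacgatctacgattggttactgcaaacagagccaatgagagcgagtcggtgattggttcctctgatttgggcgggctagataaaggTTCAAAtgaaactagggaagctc
Kif11 promoter, chr19:37376182-37376381, plus strand: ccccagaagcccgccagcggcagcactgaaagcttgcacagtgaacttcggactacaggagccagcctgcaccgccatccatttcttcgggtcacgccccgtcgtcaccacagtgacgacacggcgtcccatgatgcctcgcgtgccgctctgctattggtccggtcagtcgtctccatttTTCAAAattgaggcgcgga
Uhrf1 promoter, chr17:56303137-56303336, plus strand: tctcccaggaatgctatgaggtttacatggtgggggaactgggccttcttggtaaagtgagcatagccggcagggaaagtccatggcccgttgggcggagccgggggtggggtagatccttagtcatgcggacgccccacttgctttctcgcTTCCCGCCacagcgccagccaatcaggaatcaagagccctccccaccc
Slc7a11 promoter, chr3:50443614-50443813, minus strand: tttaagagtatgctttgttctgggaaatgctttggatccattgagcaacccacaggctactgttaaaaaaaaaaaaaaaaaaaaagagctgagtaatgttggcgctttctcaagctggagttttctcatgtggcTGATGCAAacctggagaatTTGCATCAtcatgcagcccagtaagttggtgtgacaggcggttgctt
Chac1 promoter, chr2:119351042-119351241, plus strand: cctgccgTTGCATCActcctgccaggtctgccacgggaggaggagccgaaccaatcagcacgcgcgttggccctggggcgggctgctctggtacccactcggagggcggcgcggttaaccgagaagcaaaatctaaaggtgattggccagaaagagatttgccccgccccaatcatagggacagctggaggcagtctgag
Atf3 promoter, chr1:191183334-191183533, minus strand: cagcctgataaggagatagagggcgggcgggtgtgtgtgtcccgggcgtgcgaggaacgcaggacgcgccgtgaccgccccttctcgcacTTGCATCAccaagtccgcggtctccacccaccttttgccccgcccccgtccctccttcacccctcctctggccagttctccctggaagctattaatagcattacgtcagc
Over 250 bases before the start, TTTGAA stood in 12 of 32 promoter windows of the mitosis list (37.5%), against 10.6% of windows of all genes that passed the filter. TTGCATCA stood in 5 of 21 windows of the stress list (23.8%), against 0.501%, and GGCGGGAA in 4 of 31 windows of the DNA replication list (12.9%), against 3.35%. The 5-letter motif CCAAT, a common promoter element, was present in 75% of the mitosis windows, 58.1% of the S phase, 66.7% of the stress and 80% of the cholesterol synthesis windows, and in 35.7% of all those windows. A genome-wide set of 32851 RefSeq windows held TTTGAA in 16%, TTGCATCA in 0.791%, GGCGGGAA in 1.86% and CCAAT in 33.8%. Both strands were searched, no motif contains another, and a match is a description of the sequence, not a site of binding.

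On day 10 the GSK126 cells had more DNA replication and mitosis transcripts than on day 6, fewer stress-response transcripts, and more of several mineralization transcripts. Of the 12221 genes, 466 were at least 2-fold higher on day 10 than on day 6 (3.81%) and 324 at least 2-fold lower (2.65%). The balance depends on the minimum level: without one, 1452 genes were 2-fold higher and 1729 were 2-fold lower. At 5 CPM 359 were 2-fold higher and 182 were 2-fold lower. In vehicle cells over the same days 325 genes were 2-fold higher (2.66%) and 153 were 2-fold lower (1.25%). Counting changes of any size, 49.8% of the genes were higher and 50.2% were lower with GSK126. Changes of 4-fold or more with GSK126 numbered 69 upward (0.565%) and 67 downward (0.548%). The median log2 ratio of all genes was close to 0 in both, at -0.0021 with GSK126 and 0.0045 with vehicle. With 1 library a side no test was possible, and the ranges in brackets are exact binomial 95% intervals on fragments that cover counting error only. In these bulk samples fewer cells of a type and less RNA per cell cannot be told apart, so that a lower cell cycle transcript may be fewer cycling cells or less message in each.

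**Figure D1:**
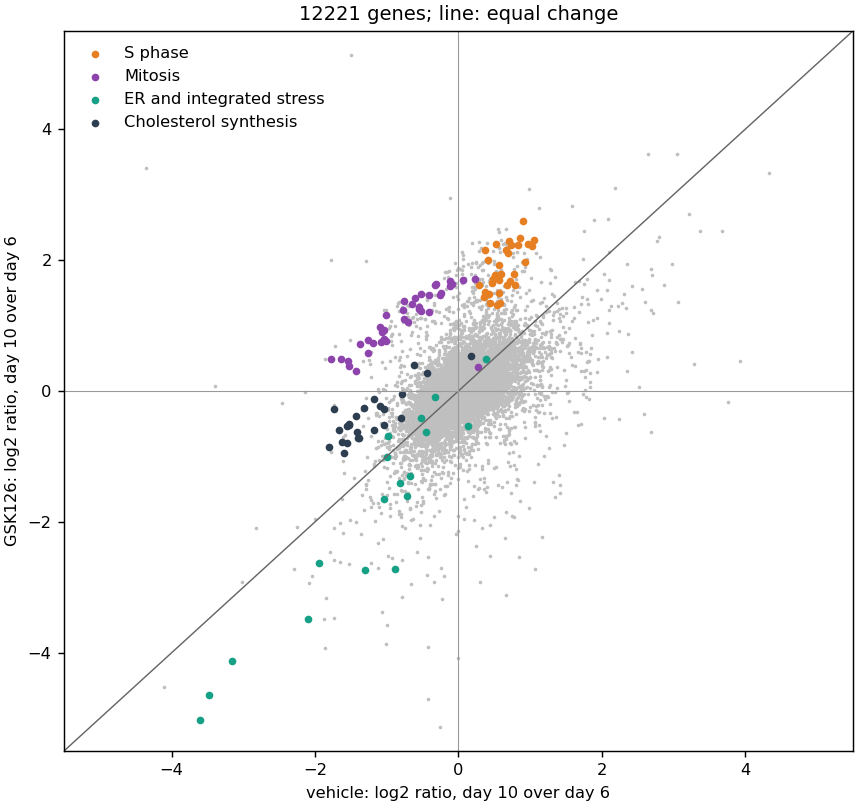
Change between day 6 and day 10 for 12221 genes, as the log2 ratio of day 10 over day 6 in GSK126 cells (vertical axis) and in vehicle cells (horizontal axis), each point 1 gene and the diagonal line equal change. The S phase genes lie above 1 on the vertical axis, the mitosis genes lie mostly left of 0 and above 0, and the stress genes run to the lower left, with 6 genes outside the axes.

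The DNA replication genes returned to above their day 3 level. All 32 genes of the S phase list were at least 2-fold higher on day 10 than on day 6 with GSK126, by 1.31 to 2.60 on the log2 scale and a median of 1.78. In vehicle cells 2 of the 32 passed 2-fold, with a median of 0.58. The median covers the origin licensing genes at 1.97 (10 of 10), the replication fork genes at 1.74 (16 of 16) and the nucleotide supply genes at 1.98 (6 of 6).

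Cdc6, which loads the replicative helicase at origins, had 30.6, 9.65 and 58.7 CPM on days 3, 6 and 10 with GSK126, against 32.7, 16.6 and 31.1 CPM with vehicle. Its day 10 to day 6 log2 ratio was 2.60 (2.47 to 2.75) with GSK126 and 0.90 with vehicle. The GSK126 cells were thus below vehicle on day 6 and above it on day 10. Mcm2, a subunit of that helicase, had 154, 84.2 and 289 CPM with GSK126 on the 3 days, against 150, 99.4 and 170 CPM with vehicle. Pcna, the sliding clamp of DNA polymerases, had 252, 153 and 468 CPM with GSK126, against 235, 165 and 286 CPM with vehicle. For both, the day 10 level with GSK126 was the highest of the 6 libraries.

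Gmnn, the inhibitor of re-licensing, had 17.6, 6.26 and 31.8 CPM with GSK126 on days 3, 6 and 10 and 19.4, 9.89 and 17.9 CPM with vehicle. Rrm2, the regulated subunit of ribonucleotide reductase, had 105, 31.3 and 154 CPM with GSK126 and 100, 50.3 and 82.1 CPM with vehicle. With GSK126 both show 1 course, a dip on day 6 that was deeper than with vehicle and a day 10 level above day 3. With vehicle both genes were still below their day 3 level on day 10. All 32 S phase genes were above their own day 3 level on day 10 with GSK126, by a median of 0.53, whereas the vehicle median was -0.09. All 32 were below vehicle on day 6, by a median of -0.57, and all 32 were above vehicle on day 10, by a median of 0.68. The day 6 and day 10 ratios to vehicle share no library.

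**Figure D2:**
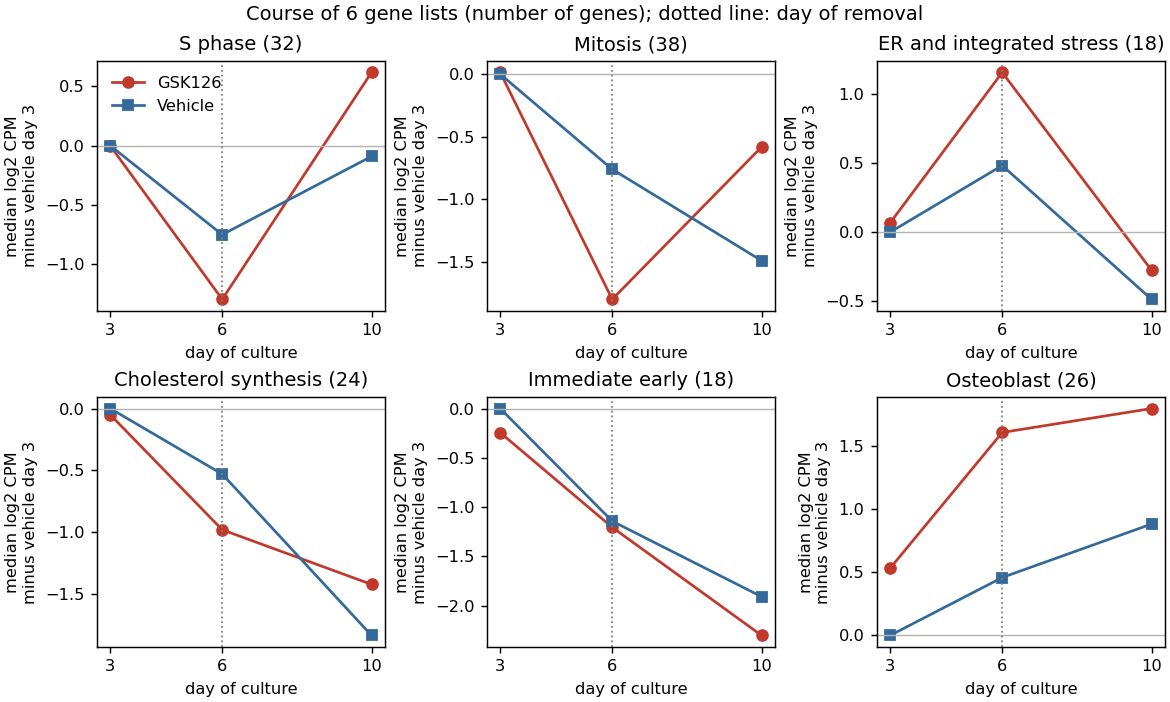
Median over each list of log2 (CPM + 0.02) minus the same gene's value in vehicle cells on day 3, on days 3, 6 and 10, for GSK126 (red circles) and vehicle (blue squares), with the number of genes in each title and a dotted line at removal. GSK126 lies under vehicle on day 6 and over it on day 10 for S phase, mitosis and cholesterol synthesis, while the stress list peaks on day 6 and the osteoblast list stays above vehicle on all 3 days.

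Mitotic genes also came back, but not to the level of day 3. All 38 genes of the mitosis list had a higher level on day 10 than on day 6 with GSK126, and 22 of them passed 2-fold. With vehicle, 35 of the 38 were lower on day 10, and 16 passed 2-fold. The median log2 ratio was 1.19 with GSK126 and -0.73 with vehicle. Relative to vehicle, 38 of 38 were lower on day 6 (median -1.01) and 37 of 38 were higher on day 10 (median 0.84). Only 3 of the 38 stood above their own day 3 level on day 10 with GSK126, and the median against day 3 was -0.63 with GSK126 and -1.49 with vehicle.

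Mki67, the proliferation marker Ki-67, had 547, 121 and 271 CPM on days 3, 6 and 10 with GSK126, against 503, 294 and 146 CPM with vehicle. Its day 10 to day 6 ratio was 1.17 (1.12 to 1.21) with GSK126 and -1.01 with vehicle. Of the genes in the mitosis list, Mki67 alone passed 2-fold in opposite directions in the 2 treatments. Over all genes, 7 were 2-fold higher with GSK126 and 2-fold lower with vehicle (0.0573%), and 10 were the reverse (0.0818%).

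The mitotic genes did not move by the same amount. Cdk1, the kinase that drives entry into mitosis, had 132, 45.9 and 150 CPM with GSK126, against 131, 79.6 and 93.7 CPM with vehicle, a ratio of day 10 to day 6 of 1.71 with GSK126. Top2a, which untangles sister chromatids, had 449, 137 and 425 CPM with GSK126, against 436, 266 and 249 CPM with vehicle. Both were again near their day 3 level with GSK126.
Ccnb1, the cyclin partner of CDK1, had 97.8, 27 and 44.3 CPM with GSK126, against 94.3, 52 and 20.0 CPM with vehicle. Its level with GSK126 on day 10 was above vehicle and below both day 3 libraries. Cdc20, the activator of the anaphase-promoting complex, had 70.2, 21.6 and 26.8 CPM with GSK126, against 70.6, 43.9 and 16.2 CPM with vehicle. Cdc20 was the smallest change of the list at 0.31 (0.19 to 0.43). Cenpe and Cenpf, which act at the kinetochore, were at 0.38 and 0.50 with GSK126 and -1.53 and -1.64 with vehicle. By role, 7 of 12 mitotic kinases and cyclins, 11 of 18 spindle and chromosome genes and 4 of 8 exit and regulatory genes passed 2-fold, with medians of 1.27, 1.24 and 0.95.

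Among regulators that act before DNA replication, E2f1, E2f2, E2f7, E2f8 and Ccne2 passed 2-fold, and the cyclin D genes Ccnd1 and Ccnd2 did not. Of 16 regulators of the G1 phase, 8 were 2-fold higher with GSK126 on day 10 and 0 were 2-fold lower, against 1 and 0 with vehicle. By role, 5 of 8 E2F and pocket protein genes and 3 of 8 cyclins and kinases were 2-fold higher with GSK126. Ccne2, a cyclin E gene that opens S phase, had 23.8, 10.8 and 77 CPM with GSK126 and 24.1, 14.6 and 43.8 CPM with vehicle. Its ratio of 2.83 (2.70 to 2.96) was the largest in the S phase, mitosis and G1 lists, and the vehicle ratio was 1.58. E2f1, E2f2, E2f7 and E2f8 had ratios of 1.84, 2.25, 1.85 and 2.27 with GSK126 and 0.59, 0.62, 0.05 and 0.19 with vehicle. Mybl2, which encodes B-MYB, had 28.6, 8.5 and 47.3 CPM with GSK126 and 26.1, 14.3 and 20.9 CPM with vehicle. Ccnd1, the cyclin that answers growth factors, had 485, 568 and 573 CPM with GSK126 and 410, 393 and 431 CPM with vehicle, and its ratio of 0.01 was the smallest in size among these regulators. Ccnd2 had 885, 746 and 420 CPM with GSK126 and 806, 767 and 556 CPM with vehicle. Its ratio of -0.83 was the lowest of the G1 list, against -0.46 with vehicle.

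Growth genes outside the cell cycle showed no dip and return of this size. Of 20 genes of ribosome biogenesis, 0 passed 2-fold in either direction with either treatment, and the medians were 0.03 with GSK126 and -0.08 with vehicle. Myc had 156, 126 and 87.6 CPM with GSK126 on days 3, 6 and 10 and 139, 129 and 95.6 CPM with vehicle. Nop56, a nucleolar protein of ribosomal RNA modification, had the largest ratio, 0.57, against 0.19 with vehicle. Replication-dependent histone genes are tied to DNA replication and stand apart from these growth genes. Of the 24, 4 passed the filter, and 2 of them were 2-fold higher, against 1 with vehicle. Their levels were 0.141 to 12.8 CPM over the 2 GSK126 libraries, too low to read a return from. The libraries came from an mRNA kit, and whether it captured these transcripts was not tested.

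Arrest genes were mostly lower. Of 18 listed, 15 passed the filter, and 13 of these were lower and 2 higher with GSK126, against 11 and 4 with vehicle. The 11 arrest and p53 target genes were all lower with GSK126, and the 4 CDK inhibitors were 2 lower and 2 higher. Of the 15, 3 were 2-fold lower with GSK126 and 1 was 2-fold higher, against 0 and 0 with vehicle. The lower ones were Btg2 at -1.58, Trp53inp1 at -1.35 and Gadd45a at -1.18, all of them p53 targets, with vehicle ratios of -0.89 for Btg2 and -0.77 for Trp53inp1. Gadd45a, a damage- and stress-induced gene, had 5.58, 22.3 and 9.83 CPM with GSK126 and 4.74, 6.49 and 9.18 CPM with vehicle. Cdkn1a, the CDK inhibitor p21, had 266, 527 and 367 CPM with GSK126 and 214, 308 and 269 CPM with vehicle, a ratio of -0.52 (-0.55 to -0.50) that stayed inside 2-fold. Cdkn1b, the inhibitor p27, had a ratio of -0.18 with GSK126 and -0.05 with vehicle. The higher gene was Cdkn2d, an inhibitor of CDK4, at 1.14, against 0.08 with vehicle. Ezh2, which encodes the inhibited enzyme, had 74.5, 38.8 and 75.7 CPM with GSK126 and 71.2, 46.7 and 51.7 CPM with vehicle, a ratio of 0.96 (0.88 to 1.05) against 0.15. Rbbp4 had the next largest ratio of the 11 PRC2 genes, 0.46, and of 2 demethylases Kdm6b, which removes the mark, was 2-fold lower at -1.05, against -0.64 with vehicle.

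**Figure D3:**
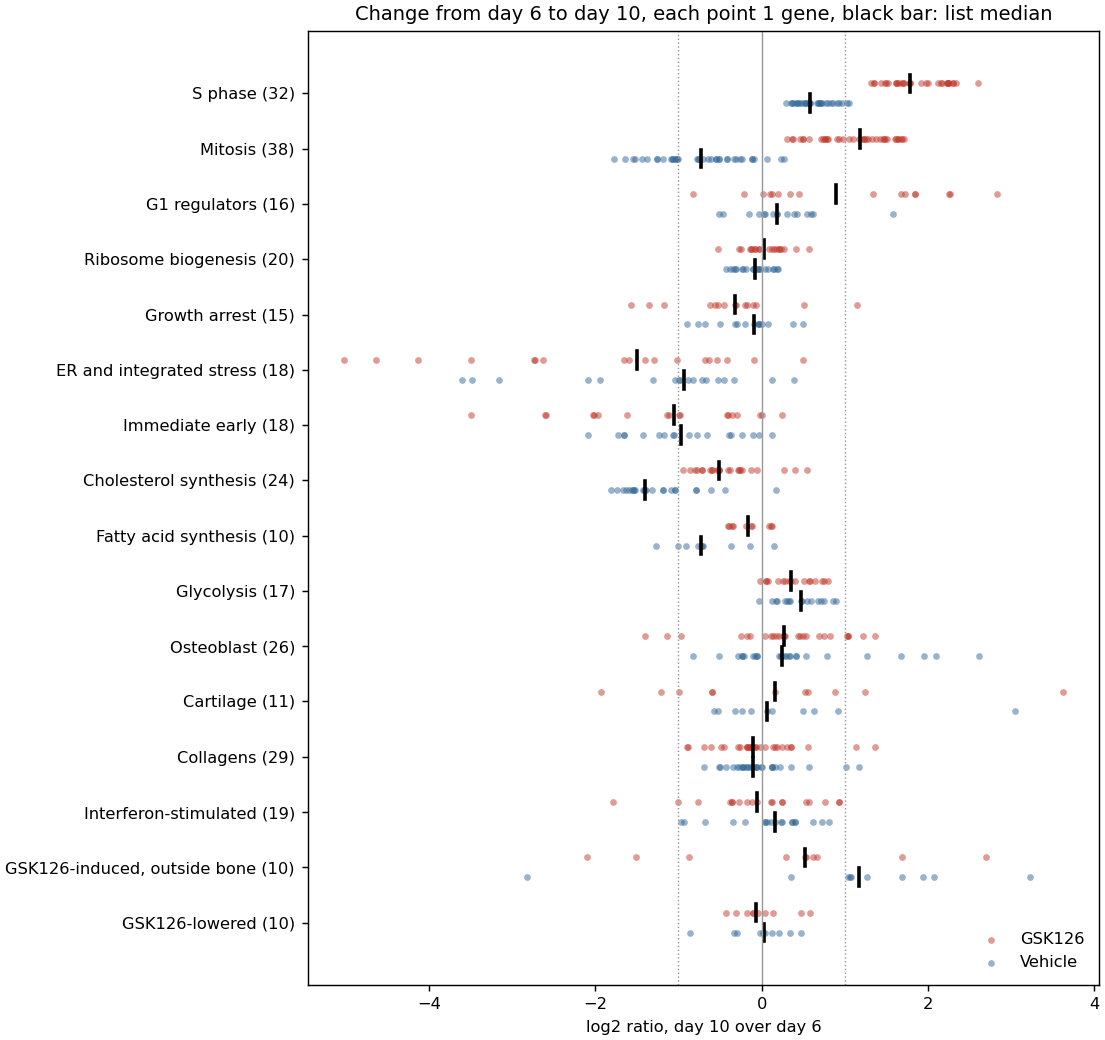
Log2 ratio of day 10 over day 6 for each gene of 16 lists, with GSK126 (red, upper row of each pair) and vehicle (blue, lower row), the list median as a black bar and dotted lines at 2-fold. The S phase points with GSK126 all lie right of the upper 2-fold line, and the mitosis points lie on opposite sides of 0 in the 2 treatments for 35 of 38 genes.

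Stress-response genes had the lowest list median of all. Of 18 genes of the endoplasmic reticulum and integrated stress list, 12 were at least 2-fold lower on day 10 with GSK126 and 7 with vehicle, with medians of -1.50 and -0.93. None was 2-fold higher in either. On day 6 all 18 had been above vehicle, by a median of 0.75, with 8 past 2-fold. On day 10 the median was 0.36, with 13 of 18 above vehicle and 3 past 2-fold.

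Slc7a11, the cystine importer, had 3.32, 27.6 and 0.828 CPM on days 3, 6 and 10 with GSK126, against 1.37, 5.48 and 0.434 CPM with vehicle, and its ratio of -5.03 (-5.56 to -4.60) was the lowest of the list. Trib3, a pseudokinase induced by ATF4 and CHOP, had 6.02, 117 and 4.67 CPM with GSK126, against 2.73, 14.8 and 1.3 CPM with vehicle. Chac1, which degrades glutathione, had 9.34, 50.3 and 2.84 CPM with GSK126, against 5.16, 10.7 and 1.18 CPM with vehicle. Each of these peaked on day 6 in both treatments, with the higher peak under GSK126, and fell below its day 3 level by day 10.

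Ddit3, which encodes CHOP, differed from them in that its vehicle course was flatter: 14.4, 75.7 and 11.5 CPM with GSK126 and 14.5, 25 and 13.5 CPM with vehicle. Asns, asparagine synthetase, had 106, 381 and 61.4 CPM with GSK126 and 77.3, 127 and 33.1 CPM with vehicle. Atf4 itself had 225, 394 and 149 CPM with GSK126 and 229, 229 and 130 CPM with vehicle, a ratio of -1.40 (-1.44 to -1.36) against -0.82. The GSK126 level on day 6 was the highest of the 6 libraries for each of these. Aldh1l2, a mitochondrial folate enzyme, had 110, 605 and 79 CPM with GSK126 and 106, 207 and 48.6 CPM with vehicle. Psph, the last enzyme of serine synthesis, had 16, 50.2 and 12.1 CPM with GSK126 and 13.9, 19.8 and 11.5 CPM with vehicle. These genes lie outside the list and also peaked on day 6. Pck2 and Mthfd2, of gluconeogenesis and of mitochondrial folate metabolism, had ratios of -2.52 and -1.67 with GSK126 and -0.99 and -1.23 with vehicle. The chaperone Hspa5, a target of the unfolded protein arm, had nearly the same ratio in both, -1.02 with GSK126 and -0.99 with vehicle. Vldlr, a lipoprotein receptor, did not return: it had 120, 489 and 366 CPM with GSK126 and 92, 219 and 152 CPM with vehicle.

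Across the genome, 127 genes were 2-fold above vehicle on day 6 and then 2-fold lower on day 10 than on day 6 with GSK126 (1.04%), and they are called the genes that fell back. Both conditions use the GSK126 library of day 6, so that a chance high value there would enter them, and the count is a description. Of the 127, 26 were 2-fold lower with vehicle too (20.5%, against 1.25% of all genes). On day 10, 29 of the 127 were still 2-fold above vehicle (22.8%, against 3.2% of all genes). The GSK126 library of day 10 enters both that ratio and the choice of the 127. From day 3 to day 6 with GSK126, 94 of the 127 had become 2-fold higher (74%, and 4.7% of all genes). That contrast shares a library, and nothing is read from it. The median ratio to vehicle was 1.85 on day 6 and 0.34 on day 10. Besides the stress genes they included Timp3, an inhibitor of matrix metalloproteases, with 252, 917 and 194 CPM under GSK126 and 342, 400 and 277 CPM under vehicle. They also included Col2a1, the cartilage collagen, with 559, 245 and 106 CPM under GSK126 and 207, 56.4 and 58.7 CPM under vehicle, which was lower at each later day with GSK126.

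Some genes that fell back remained far above vehicle. Ostn, which encodes the bone and muscle peptide osteocrin, had 0.175, 41.5 and 9.68 CPM with GSK126 and 0, 0.117 and 0 CPM with vehicle. Atp2a3, a calcium pump of the endoplasmic reticulum, had 1.24, 48.9 and 7.79 CPM with GSK126 and 0.695, 2.65 and 0.91 CPM with vehicle. Hpse, which encodes heparanase, had 2.75, 24.9 and 8.75 CPM with GSK126 and 0.191, 1.87 and 2.4 CPM with vehicle. All of these were highest in GSK126 cells on day 6. Avil, an actin-binding protein of the villin family, had 2.73, 121 and 41 CPM with GSK126 and 2.21, 5.56 and 14.9 CPM with vehicle, a ratio of -1.56 against 1.42, so that the treatments moved in opposite directions and the GSK126 level stayed higher.

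The loss of the day 6 difference came from either side. Of 522 genes 2-fold above vehicle on day 6 (4.27%), 279 were still 2-fold above on day 10, which is 53.4% of those genes and 71.4% of the 391 raised on day 10 (3.2%). Of the 243 that were no longer raised, 98 were 2-fold lower with GSK126 (40.3%), 43 were 2-fold higher with vehicle without such a fall (17.7%) and 102 had neither (42%). Gpnmb, a glycoprotein that rises in osteoblast maturation, belonged to the second kind, with 4.27, 50.0 and 52 CPM under GSK126 and 1.41, 5.81 and 33.3 CPM under vehicle. Spp1, which encodes osteopontin, had 277, 941 and 1326 CPM with GSK126 and 279, 317 and 1228 CPM with vehicle, so vehicle cells had caught up by day 10.

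The choice by day 3 uses no library of the day 10 to day 6 ratio. Of 304 genes 2-fold above vehicle on day 3 (2.49%), 75 were 2-fold lower on day 10 than on day 6 with GSK126 (24.7%) and 34 were 2-fold higher (11.2%). Of 22 genes 2-fold below vehicle on day 3 (0.18%), 6 were 2-fold higher (27.3%) and 3 were 2-fold lower (13.6%). The shares over all genes were 2.65% lower and 3.81% higher. Genes near the minimum level move more on counting error alone, and 47 of the 324 lower genes passed the filter only through the GSK126 library of day 6 (14.5%). Likewise 30 of the 466 higher genes passed it only through the GSK126 library of day 10 (6.44%).

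Genes that GSK126 had lowered came back in part. Of 280 genes 2-fold below vehicle on day 6 (2.29%), 134 were still below on day 10, which is 47.9% of them and 42.9% of the 312 lowered on day 10 (2.55%). Of the 280, 68 were 2-fold higher on day 10 than on day 6 with GSK126 (0.556% of all genes). Here too the GSK126 library of day 6 enters every condition, as it does for the genes that kept rising or falling. Of these 68, 62 had been 2-fold lower on day 6 than on day 3 with GSK126 (91.2%). The share over all genes was 4.61%, and nothing is read from this either. On day 10, 56 of the 68 were above vehicle (82.4%), against 5991 of all 12221 genes. The GSK126 library of day 10 enters both that ratio and the choice of the 68, so nothing is read from their day 10 ratio. The 68 had a median ratio to vehicle of -1.11 on day 6 and 0.77 on day 10, and a vehicle median change of -0.18. Of the 68, 9 were on the S phase and mitosis lists (13.2%), which hold 32 and 38 of the 12221 genes. Among all 466 genes 2-fold higher on day 10 than on day 6 with GSK126 the share was similar, with 54 on these lists (11.6%). Brca1 and Rad54l, which act in homologous recombination, had 54.2, 14.8 and 67.2 CPM and 14.1, 3.1 and 17.3 CPM with GSK126, against 53.9, 31.3 and 38.9 CPM and 15.3, 6.36 and 10.1 CPM with vehicle. TTTGAA stood in 21 of the 54 promoter windows found for 48 of these 68 genes (38.9%), against 10.6% of windows of all genes that passed the filter.

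A set of 10 genes that an earlier analysis of these data had named as lowered by GSK126 did not return. None of the 10 passed 2-fold between day 6 and day 10, and their median ratio to vehicle was -1.44 on day 6 and -1.34 on day 10. Nov, a secreted matricellular protein, had 143, 59.8 and 61.7 CPM with GSK126 and 248, 165 and 181 CPM with vehicle. Pdk4, which limits pyruvate oxidation, had 33.5, 15.8 and 23.7 CPM with GSK126 and 81.2, 51.5 and 65.1 CPM with vehicle. The matching set of 10 raised genes had median ratios to vehicle of 4.18 on day 6 and 3.26 on day 10, with 2 of them 2-fold higher on day 10 than on day 6 with GSK126 and 2 of them 2-fold lower, against 8 and 1 with vehicle. Since both sets were chosen on these libraries, their levels are a description.

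**Figure D4:**
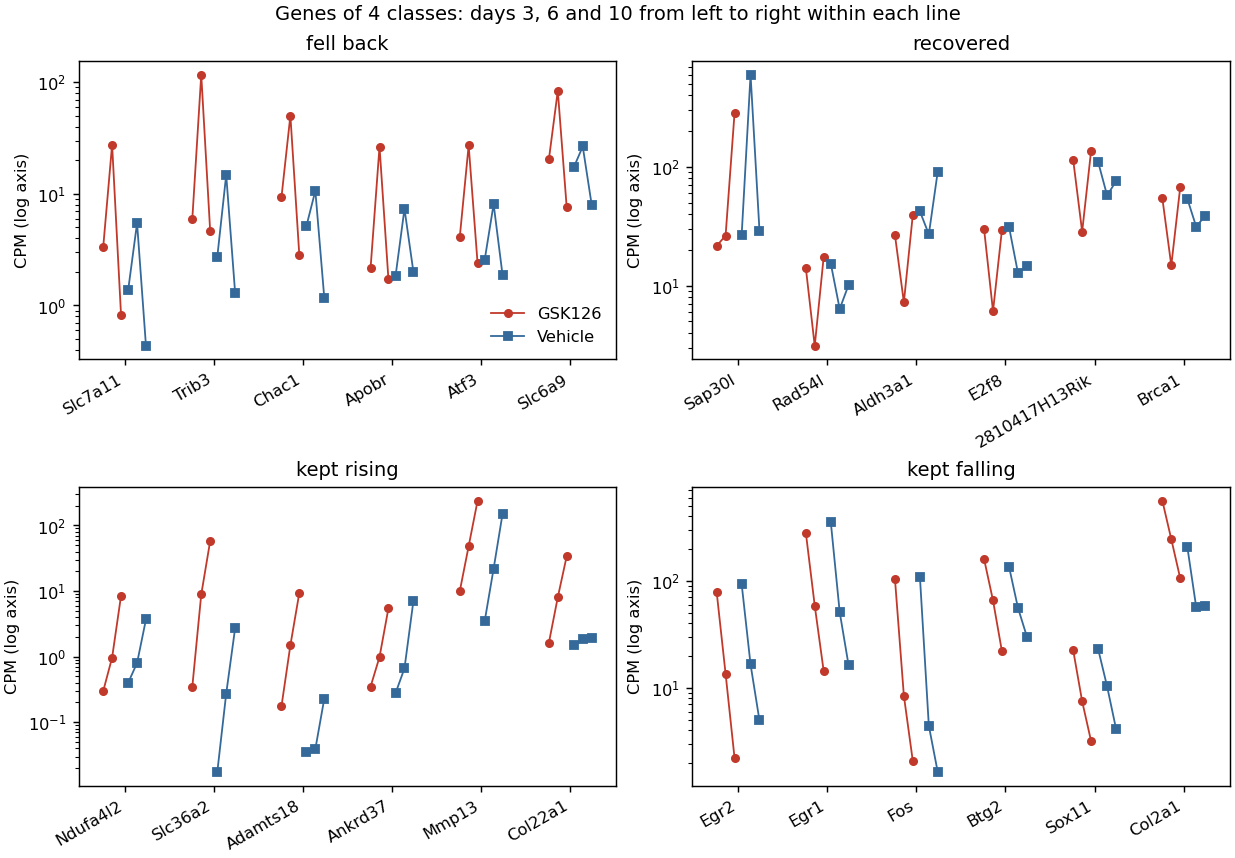
CPM (log axis) on days 3, 6 and 10, left to right within each line, for 6 genes of each class, with GSK126 in red at the left of each pair and vehicle in blue. With GSK126, the genes that fell back peak on day 6, those that recovered dip on day 6 apart from Sap30l, and those that kept rising or falling run one way.

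Some genes went on rising after removal, several of mineralization among them. A total of 58 genes were 2-fold higher on day 6 than on day 3 and again on day 10 than on day 6 with GSK126 (0.475%). Of these, 43 were also 2-fold higher on day 10 with vehicle (74.1%, against 2.66% of all genes). The 58 had a median ratio of day 10 to day 6 of 1.41 with GSK126 and 1.68 with vehicle. On day 10, 38 of the 58 stood 2-fold above vehicle (65.5%, against 3.2% of all genes). The GSK126 library of day 10 enters both that ratio and the choice of the 58, so nothing is read from this contrast. Mmp13, the collagenase of hypertrophic cartilage and bone, had 9.9, 48.3 and 238 CPM with GSK126 and 3.49, 22 and 150 CPM with vehicle. Slc36a2, an amino acid transporter, had 0.35, 8.86 and 57.7 CPM with GSK126 and 0.0174, 0.273 and 2.71 CPM with vehicle. Both were highest in GSK126 cells on day 10. Bnip3 and Ankrd37, known to answer low oxygen, had ratios of 1.72 and 2.44 with GSK126 and 1.79 and 3.37 with vehicle.

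Others among the 58 passed 2-fold with GSK126 and not with vehicle. Col22a1, a collagen of tissue junctions, had 1.63, 8.04 and 34 CPM with GSK126 and 1.51, 1.85 and 1.94 CPM with vehicle, a ratio of 2.08 (1.92 to 2.24) against 0.07. Alpl, the alkaline phosphatase that frees phosphate for mineral, had 15, 30.1 and 62 CPM with GSK126 and 10.9, 15 and 17.3 CPM with vehicle, a ratio of 1.04 against 0.21. Both genes were highest in GSK126 cells on day 10.

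The osteoblast list as a whole was above vehicle by similar medians on day 10 and day 6, but the median of its matrix and mineral genes was lower on day 10. Of 26 osteoblast genes that passed the filter, 5 were 2-fold higher and 2 were 2-fold lower on day 10 with GSK126, against 5 and 0 with vehicle, and the medians were 0.27 and 0.25. The median ratio to vehicle was 0.84 on day 6 and 0.93 on day 10. For its 10 matrix and mineral genes that median was 1.17 on day 6 and 0.46 on day 10, and 3 of the 10 had a larger day 10 to day 6 ratio with GSK126 than with vehicle. Bglap, which encodes osteocalcin, had 2.83, 76.5 and 197 CPM with GSK126 and 0.695, 3.59 and 22 CPM with vehicle. Its ratio was 1.36 (1.31 to 1.42) with GSK126 and 2.61 with vehicle, and its near-identical copy Bglap2 had 1.03 and 2.10, so reads may be split between the copies. Ifitm5, a membrane protein of mineralizing osteoblasts, had 3.39, 51.2 and 119 CPM with GSK126 and 0.816, 4.17 and 13.4 CPM with vehicle. Ibsp, which encodes bone sialoprotein, had 532, 1968 and 3472 CPM with GSK126 and 177, 409 and 547 CPM with vehicle. All 3 genes were higher with GSK126 than with vehicle on every day. The master regulators stayed inside 2-fold, with ratios of 0.11 for Runx2 and 0.46 for Sp7 with GSK126, and -0.28 and 0.41 with vehicle. The 2 lower genes were Atf4 and Mepe, a matrix phosphoprotein, at -1.14 (-1.92 to -0.46) with GSK126 and 0.33 with vehicle.

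In the other matrix lists up to 2 genes passed 2-fold in each direction, and over all genes the shares were 3.81% higher and 2.65% lower. Of 7 osteocyte genes that passed, Dmp1, a phosphoprotein that regulates mineral, and Mepe were 2-fold lower, Dmp1 with 6.46, 18.7 and 6.14 CPM under GSK126 and 4.15, 11.4 and 6.82 CPM under vehicle. Of 29 collagen and collagen-processing genes 2 were 2-fold higher, Col11a2 at 1.36 and Col24a1 at 1.13, with vehicle ratios of 1.17 and 1.01, so that the same number passed with vehicle. Of 11 cartilage genes 2 were 2-fold higher and 2 were 2-fold lower, against 1 and 0 with vehicle. Col10a1, the collagen of hypertrophic chondrocytes, had a ratio of 3.63 (2.95 to 4.57) with GSK126 and 3.05 with vehicle. Its level with GSK126 was 3.95 CPM on day 10 and 0.302 CPM on day 6. Matn1, a cartilage matrix protein, had -1.93 (-2.84 to -1.21) with GSK126, at 0.361 CPM on day 10 and 1.43 CPM on day 6, and 0.49 with vehicle. Matn1 passed the filter only through the GSK126 library of day 6, so nothing is read from its fall. Of 13 matrix protease genes and inhibitors 2 were 2-fold higher, Mmp13 and Adamts18, and 2 were 2-fold lower, Timp3 and Mmp9, against 2 and 0 with vehicle.

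Cholesterol synthesis genes were lower on day 10 than on day 6 by less with GSK126 than with vehicle. Of 24 genes that passed, 0 were 2-fold lower with GSK126 and 19 were 2-fold lower with vehicle, with medians of -0.51 and -1.40. In 23 of 24 the ratio to vehicle was negative on day 6 and in 23 of 24 it was positive on day 10, with medians of -0.47 and 0.26. Hmgcs1, an early enzyme of the pathway, had 589, 314 and 204 CPM with GSK126 and 606, 457 and 172 CPM with vehicle. Fdps, which makes farnesyl diphosphate, had 319, 157 and 129 CPM with GSK126 and 332, 227 and 68.2 CPM with vehicle. Levels on day 10 were still below day 3 with both treatments, by medians of -1.37 with GSK126 and -1.83 with vehicle. The 10 fatty acid synthesis genes had medians of -0.16 with GSK126 and -0.73 with vehicle, with 0 and 2 of them 2-fold lower.

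Immediate early genes, the first transcripts to answer a mitogen, were lower again in both treatments. Of 18, 9 were 2-fold lower on day 10 with GSK126 and 9 with vehicle, with medians of -1.05 and -0.97. Fos had 104, 8.44 and 2.08 CPM with GSK126 and 109, 4.43 and 1.63 CPM with vehicle. A total of 24 genes were 2-fold lower at both steps with GSK126 (0.196%), Egr1, Egr2, Fos and Btg2 among them. Of the 24, 9 were also 2-fold lower on day 10 with vehicle (37.5%, against 1.25% of all genes).

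In the remaining lists up to 2 genes passed 2-fold in each direction with GSK126, and over all genes the shares were 3.81% higher and 2.65% lower. Of 17 genes of BMP and TGF-beta signalling 2 were 2-fold higher, Id2 at 1.49 and Id3 at 1.87, both inhibitors of helix-loop-helix factors, and 2 were 2-fold lower, among them Nog, the BMP antagonist noggin, at -1.45. Vehicle ratios were 0.94 for Id2, 1.27 for Id3 and -0.16 for Nog, and 1 gene of the list was 2-fold higher and 1 was 2-fold lower with vehicle. Of 9 genes of the IGF system 1 was 2-fold lower, Igfbp5 at -1.50, against -1.29 with vehicle. None was 2-fold higher with GSK126, whereas with vehicle 3 were 2-fold higher and 1 was 2-fold lower. Igf2, a growth factor, had a ratio of 0.86 with GSK126 and 2.36 with vehicle. Of 19 interferon-stimulated genes 2 were 2-fold lower and 0 were 2-fold higher, and their median ratio to vehicle was -0.88 on day 6 and -0.95 on day 10. The 8 Wnt feedback genes, 5 Wnt antagonists, 17 glycolysis genes and 10 contractile actin genes had 0 past 2-fold in either direction with GSK126. With vehicle 1 contractile actin gene was 2-fold lower. At the shares over all genes, lists this small would hold few such genes, so nothing is read from these counts.

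Developmental regulators known as Polycomb targets mostly stayed inside 2-fold, as did 11431 of all 12221 genes. Of 40 such transcription factors 27 passed the filter. With GSK126 0 were 2-fold higher and 2 were 2-fold lower, Sox11 and Gata3, against 0 and 1 with vehicle. The shares over all genes with GSK126 were 3.81% higher and 2.65% lower, so these small counts are not read as a trait of the list. Its median ratios were -0.07 with GSK126 and -0.04 with vehicle. Relative to vehicle, 18 of the 27 were lower on day 6 (median -0.17) and 20 of the 27 were lower on day 10 (median -0.21). The authors' H3K27me3 islands were called once per treatment 24 hours after the first dose, before the first RNA sample. A vehicle island overlapped the promoter window of 28 of the 245 lower genes with a window (11.4%), of 8 of the 365 higher genes (2.19%) and of 170 of all 9707 (1.75%). Among the genes that fell back it was 19 of 101 (18.8%), of which 16 had an island with GSK126 as well (15.8%). Of the 324 lower genes, 47 reached 1 CPM through the GSK126 library of day 6 alone (14.5%), so these sets hold genes that are near silent elsewhere, and their shares are a description not comparable with that of all genes. Among the S phase, mitosis and stress lists it was 0 of 26, 0 of 31 and 0 of 18.

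A few genes had very uneven counts between libraries. Accn1 had 13154 counts with GSK126 on day 10 and 0 counts in the other 5 libraries, so no fold is given. Tmem158 had 58610, 148 and 44420 counts with GSK126 on days 3, 6 and 10 and 144, 184 and 2242 counts with vehicle. Sap30l had 2468, 2622 and 26558 counts with GSK126 and 3052, 61378 and 2808 counts with vehicle. With 1 library per treatment and day, a difference of that library and a difference of the condition cannot be told apart for these genes.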

How the data were processed

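RNA of 6 MC3T3 libraries (GSK126 or vehicle, days 3, 6 and 10, 1 library each) was compared. TopHat2 2.0.6 and HTSeq 0.5.3p9, with build mm10, are named in the submitters' processing notes, as are CASAVA 1.9, SICER 1.1 and BWA 0.5.9. No source used here gives the counting mode or annotation, and per the labels the TruSeq v2 mRNA kit was used, which does not mark strand, so overlapping and antisense genes cannot be told apart. The authors deposited whole-number gene counts, not normalized, and all of them are even, so 2 counts were taken as 1 fragment. The RPKM values that the authors deposited beside them were not used for results. The authors' island lists give, per the layout of the deposited files, read counts of ChIP and input, their ratio (fold enrichment), and a raw and an adjusted p-value per island. Only island positions were used, and any overlap with the window of 250 bases before to 50 after a start counted.

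Counts were scaled by TMM over the 6 RNA libraries in edgeR 4.0.16 (R 4.3.3), and log2 ratios of CPM used a prior count of 2. A ratio of a low gene is therefore drawn towards 0. Genes under 1 CPM in all 6 libraries were left out. Intervals are exact binomial (Clopper-Pearson) at 95% on fragments, computed with scipy 1.17.1, and they cover counting error only. Ratios and intervals were tested on simulated data. With 1 library a side there was no test, and nothing in the labels says that libraries came from separate cultures. The comparison, its classes and its 32 gene lists were chosen with earlier results of these data known. The rule named 194 genes with 5 CPM or more in a GSK126 library of day 6 or 10: the 15 largest and 15 smallest ratios, the 6 largest of each class, the 6 largest differences from vehicle each way, the 3 highest and 3 lowest of each list, and a few fixed genes such as Ezh2 and Mki67. Other list or class members in the text were chosen after their values were seen. Other scalings (total counts with and without Rn45s, DESeq2 1.42.0 size factors, TMM over 2 libraries), prior counts and filters were tried. A few list members are counted but not reported by name here.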

Additional observations from a re-analysis of the deposited data

Results flagged for a closer look

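Several results moved one way with GSK126 and the other way with vehicle between day 6 and day 10. With 1 library per treatment and day these differences were not tested. The mitosis list had a median log2 ratio of day 10 over day 6 of 1.19 with GSK126 and -0.73 with vehicle. Mki67, the proliferation marker, had 1.17 with GSK126 and -1.01 with vehicle. Avil, an actin-binding protein, had -1.56 with GSK126 and 1.42 with vehicle. Angptl6, an angiopoietin-like secreted protein, had -2.23 with GSK126 and 1.17 with vehicle, at no more than 5.05 CPM in any library. Dpt, which encodes the matrix protein dermatopontin, had -1.61 with GSK126 and 1.35 with vehicle. It had 0.227, 5.5 and 1.78 CPM on days 3, 6 and 10 with GSK126 and 0.452, 5.73 and 14.6 CPM with vehicle. Sap30l, a subunit related to histone deacetylase complexes, had 3.42 with GSK126 and -4.36 with vehicle. Its level was uneven, with 282 CPM in GSK126 cells on day 10 and 599 CPM in vehicle cells on day 6, against 21.6 to 29.0 CPM in the other 4 libraries.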

How the results depend on the processing

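No named ratio or list median past 2-fold changed direction under the 8 alternatives. Some smaller values did. The medians compared were those of the lists and that of all genes, without the skeletal muscle list, which had 0 genes past the filter. Of these medians, 27 of 32 kept their sign with no filter and 26 of 30 with a minimum of 5 CPM. With TMM over 2 libraries 30 of 32 did, and under total counts 31 of 32. Under total counts 192 of 194 named genes kept their sign, and what changed was Ccnd1 (-0.01), Zfp36 (-0.03) and the Wnt feedback list (-0.01). The neuronal list median, over 2 genes, was -0.11 under total counts without Rn45s and 0.57 as given, and the cartilage median was -0.59 with a minimum of 5 CPM and 0.16 as given. The filter moved the counts most. Without a filter, 1452 genes were 2-fold higher and 1729 were 2-fold lower on day 10 with GSK126, 940 fell back, 387 recovered, 110 kept rising and 126 kept falling, so lower genes outnumber higher ones there. With a minimum of 5 CPM, 359 were 2-fold higher and 182 were 2-fold lower. Under that minimum 58 fell back, 34 kept rising and 13 kept falling, and the median of the osteoblast list was 0.36. Fewer genes enter under the stricter filter by construction, and more low-count genes without one. Across all alternatives the S phase median stayed at 1.75 to 1.79, the mitosis median at 1.16 to 1.20 and the cholesterol synthesis median at -0.54 to -0.50. No paired analysis was possible because each group held 1 library and the numbers in the labels tie no samples together. No replicate could be left out for the same reason. Counting error is small at this depth for most named genes, but the spread between cultures was not measured, so a 2-fold difference of a single gene cannot be set against it.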
